A study of Mus musculus with 12 samples.

Results

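The mitochondrial carrier family (SLC25) was described in liver RNA of the NICD1/Akt model of cholangiocarcinoma (CCA). Members were the protein-coding genes whose symbol is Slc25a followed by a number and that reached at least 1 CPM (a gene's reads scaled to the size of its library) in at least 3 of the 12 libraries. The rule kept 40 genes of the 47 family symbols in the count tables, which hold 21807 gene IDs in all. Slc25a34 and Slc25a35, just inside the rule, reached 1 CPM in 9 libraries each, and Slc25a53, just outside it, did so in 1 library. The other 6 genes left out, Slc25a2, Slc25a18, Slc25a31, Slc25a41, Slc25a43 and Slc25a54, had between 0 and 42 counts in total over the 12 libraries.

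The mice were C57BL/6J, and the study's methods describe them as males of 5 weeks at injection. NICD1/Akt livers came from mice that received plasmids for NICD1 (the intracellular domain of Notch1, 10 µg) and myr-AKT (a membrane-bound active AKT, 10 µg) with the Sleeping Beauty transposase by hydrodynamic tail vein injection (HTVi), which delivers plasmids mainly to hepatocytes. They were collected after 2 weeks (libraries 33, 34 and 35) and after 3 weeks (libraries 1, 2 and 3), and the labels call this tissue liver with CCA tumor. Control livers came from mice without HTVi, in libraries labelled for 2 weeks (30, 31 and 32) and for 3 weeks (10, 11 and 12). With 3 libraries per group and no statement that each came from a separate mouse, p-values here reflect only library-to-library spread.

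Carriers of this family sit in the inner mitochondrial membrane, with a few in the outer membrane or in peroxisomes, and pass metabolites, nucleotides, phosphate, amino acids and cofactors between the cytosol and the matrix. Hepatocytes lean on them for the urea cycle, the malate-aspartate shuttle, fatty acid oxidation and the export of citrate for lipid synthesis. Several substrates are served by paralogs that differ between tissues, such as the ADP/ATP exchangers Slc25a4, the main form of heart and muscle, and Slc25a5, the main form of liver and of dividing cells.

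The depth was 13136892 to 19594839 counts per library. All CPM values below are scaled by TMM factors computed over the 12 libraries. Fold changes and overlap of single genes within a stage instead use TMM factors of that stage's 6 libraries. They can therefore differ slightly from what the printed CPM values give. Akt1, a plasmid gene, measured 594, 850 and 780 CPM in NICD1/Akt livers of 3 weeks, against 85.3, 74.5 and 76.8 CPM in controls. At 2 weeks it measured 285, 325 and 927 CPM in NICD1/Akt livers, against 90.9, 90.1 and 381 CPM in controls, where the high value is library 32. Library 32 therefore goes against its label. Ddx3y, a Y-linked gene, was at 57.2 CPM in library 32 and between 0 and 0.398 CPM in the other 5 libraries of 2 weeks, although the methods name male mice, and it was at 52.2 CPM or more in all 6 libraries of 3 weeks. Stage cannot be told apart from this difference, and each 2-week result is given with library 32 and, where it matters, without it.

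At 3 weeks, 6 carriers were higher and 23 were lower in NICD1/Akt livers than in controls (edgeR quasi-likelihood test, adjusted p under 0.05), and 11 were not called. Among all 13408 genes tested, 38.9% were called higher and 33.1% lower. The median log2 fold change was -0.68 over the members and 0.06 over all genes. The carriers that rose were Slc25a4, Slc25a24, Slc25a36, Slc25a27, Slc25a48 and Slc25a12. Scaled by library size alone, without TMM factors, all fold changes moved up by 0.71 on the log2 scale, the median of the members became 0.02, the counts became 18 higher and 10 lower, and 87.6% of the calls over all genes were higher instead of 54.1%. Under that scaling Slc25a11, Slc25a17 and Slc25a46, called lower with TMM, were called higher (edgeR adjusted p = 0.007, 0.020 and 0.023), and Slc25a3 was not called, with a fold change above 0. The directions given here are relative to the TMM scale. Over the 17 alternatives tried at 3 weeks, 4 of the 6 rises (Slc25a4, Slc25a24, Slc25a36 and Slc25a48) and 9 of the 23 falls (Slc25a1, Slc25a10, Slc25a13, Slc25a15, Slc25a21, Slc25a22, Slc25a23, Slc25a32 and Slc25a44) kept their call in each.

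The share of all counts that fell on the 40 carriers was 0.298% to 0.372% in NICD1/Akt livers at 3 weeks, against 0.394% to 0.427% in controls. These are bulk livers, so fewer cells of a type and less RNA per cell cannot be told apart. The summed level of 10 hepatocyte markers (such as Alb and Ttr), of which 9 were called lower, was 27671 to 40622 CPM in NICD1/Akt livers and 113518 to 119239 CPM in controls, and none of the 10 was at 0. Of 9 cholangiocyte markers tested, 7 were called higher, and the summed level of the list of 10 was 4543 to 5865 CPM against 1058 to 1999 CPM. All 9 monocyte and macrophage markers were called higher (summed 318 to 476 CPM against 102 to 141 CPM), as were 6 of 9 stellate cell and fibroblast markers (2585 to 3502 CPM against 298 to 405 CPM) and all 6 proliferation markers (276 to 374 CPM against 26.5 to 33.9 CPM). Of 7 endothelial markers, 2 were called higher and 2 lower (269 to 314 CPM against 321 to 369 CPM). None of these lists but the erythroid one, given with the iron carriers below, had a gene at 0 in either group. The part of these cell types in the carrier results was not tested.

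**Figure D1:**
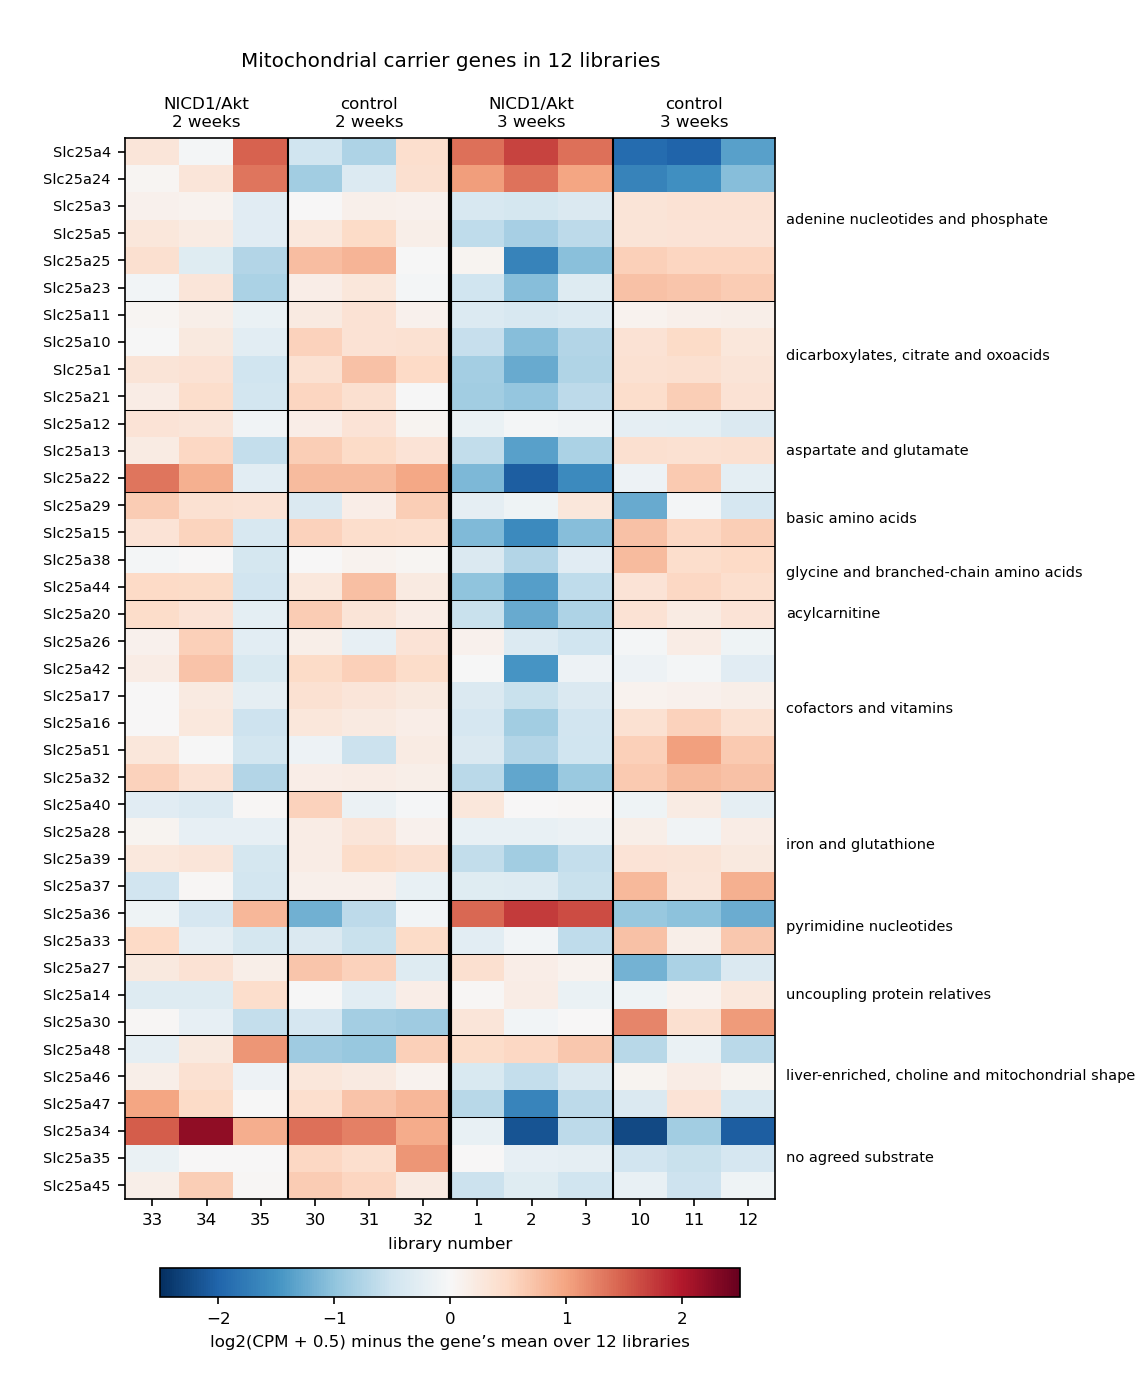
Each row is one of 39 carriers, grouped by what it transports, and each column a library; colour gives log2(CPM + 0.5) minus the mean of that gene over the 12 libraries. Most rows are low (blue) in NICD1/Akt libraries 1, 2 and 3 of 3 weeks, while Slc25a4, Slc25a24 and Slc25a36 are high (red) there, and library 35 shows the same colours more weakly among the NICD1/Akt libraries of 2 weeks.

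The adenine nucleotide carriers held the largest rise, except against all 6 controls of both stages, where Slc25a36 rose by 2.49 and Slc25a4 by 2.31 on the log2 scale. Slc25a4, the ADP/ATP exchanger of heart and muscle, measured 43.9, 54.2 and 43.7 CPM in NICD1/Akt livers of 3 weeks, against 3.97, 3.74 and 6.17 CPM in controls. Its lowest NICD1/Akt library was far above its highest control (log2 fold change 3.47 ± 0.19 SE, 11.1-fold, adjusted p = 1.8e-06 in the edgeR quasi-likelihood test). Its paralog Slc25a5 went the other way, with 171, 151 and 170 CPM in NICD1/Akt livers, against 333, 340 and 340 CPM in controls (log2 fold change -0.92 ± 0.10 SE). Per kilobase of exon, Slc25a5 stood at 99.6 CPM and Slc25a4 at 20.1 CPM in NICD1/Akt livers, so Slc25a5 remained the more abundant. In controls Slc25a5 stood at 205 CPM per kilobase and Slc25a4 at 1.97. Among the 40 carriers Slc25a4 was number 10 by this level in NICD1/Akt livers and number 31 in controls at 3 weeks, and Slc25a5 was number 1 in both groups. Slc25a5 has processed copies in the genome, and how reads shared with them were counted is not known here.

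To show what sits upstream of these genes, the promoter windows of the 3 carriers with the largest rises and of Slc25a5 are given 5′ to 3′ on the gene's strand, from 250 bases before to 50 bases after the start (RefSeq, GRCm38.p6). Slc25a4 lies at chr8:46211013-46211312 (minus strand), Slc25a5 at chrX:36795347-36795646 (plus), Slc25a24 at chr3:109122899-109123198 (plus) and Slc25a36 at chr9:97110992-97111291 (minus). Capitals mark matches, on either strand, to CCAAT (the box bound by NF-Y), the E-box CACGTG or to TGGGAA (the core bound by RBPJ, the partner of NICD1 on DNA).
Slc25a4: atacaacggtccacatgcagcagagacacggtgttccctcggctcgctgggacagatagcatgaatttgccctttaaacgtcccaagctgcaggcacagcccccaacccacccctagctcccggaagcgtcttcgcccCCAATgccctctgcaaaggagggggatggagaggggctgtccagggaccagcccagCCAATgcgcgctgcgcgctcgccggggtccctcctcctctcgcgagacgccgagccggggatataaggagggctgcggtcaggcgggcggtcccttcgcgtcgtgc
Slc25a5: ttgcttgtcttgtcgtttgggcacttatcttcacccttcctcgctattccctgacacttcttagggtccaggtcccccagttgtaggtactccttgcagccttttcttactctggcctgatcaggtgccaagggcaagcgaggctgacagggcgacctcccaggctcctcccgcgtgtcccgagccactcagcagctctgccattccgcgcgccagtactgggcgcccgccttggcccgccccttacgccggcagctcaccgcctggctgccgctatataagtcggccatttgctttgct
Slc25a24: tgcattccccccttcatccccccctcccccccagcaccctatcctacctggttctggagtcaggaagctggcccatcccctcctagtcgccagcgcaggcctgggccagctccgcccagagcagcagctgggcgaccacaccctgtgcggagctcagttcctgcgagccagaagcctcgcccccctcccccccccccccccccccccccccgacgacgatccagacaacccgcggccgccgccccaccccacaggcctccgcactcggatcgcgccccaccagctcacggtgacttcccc
Slc25a36: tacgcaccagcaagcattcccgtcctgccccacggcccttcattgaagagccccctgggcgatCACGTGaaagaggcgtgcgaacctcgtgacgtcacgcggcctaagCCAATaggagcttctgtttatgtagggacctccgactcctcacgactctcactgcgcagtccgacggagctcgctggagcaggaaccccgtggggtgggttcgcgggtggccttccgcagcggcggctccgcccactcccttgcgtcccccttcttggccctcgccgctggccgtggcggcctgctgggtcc
The Slc25a4 window held 2 CCAAT matches and the Slc25a36 window held 1 CCAAT and 1 E-box match, while the windows of Slc25a24 and Slc25a5 held no match to any of the 3 motifs. The table of windows covered 31 of the 40 members with 40 windows. CCAAT was in 52.5% of these, against 37.4% of all 32851 windows. The E-box was in 17.5% of member windows and in 7.15% of all windows, and TGGGAA was in 17.5% of member windows and in 25.6% of all windows. The windows also differed in base composition. Member windows had a median of 59.3% G and C letters and 15 CG steps, against 52.7% and 7 in all windows. CACGTG itself holds a CG step, and the part of base composition in these shares was not tested. A match is a stretch of letters and does not show binding.

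Slc25a24, Slc25a23 and Slc25a25 exchange ATP-Mg for phosphate and set the adenine nucleotide pool of the matrix. Slc25a24 measured 13, 16 and 12.4 CPM in NICD1/Akt livers of 3 weeks, against 1.55, 1.74 and 2.58 CPM in controls (log2 fold change 2.93 ± 0.22 SE, 7.61-fold, edgeR adjusted p = 8.8e-06). Slc25a23 measured 266, 178 and 298 CPM, against 621, 604 and 585 CPM in controls (log2 fold change -1.17 ± 0.18 SE). The paralogs thus moved in opposite directions without overlap in either. Slc25a25 measured 168, 50.2 and 77.1 CPM in NICD1/Akt livers and 242, 235 and 233 CPM in controls, a wide spread among the NICD1/Akt livers (log2 fold change -1.14 ± 0.37 SE, edgeR adjusted p = 0.022). Its call was lost on leaving out library 3 or 10, and with library size alone. Slc25a3, the phosphate carrier that feeds ATP synthase, measured 220, 214 and 225 CPM in NICD1/Akt livers, against 366, 375 and 373 CPM in controls (log2 fold change -0.64 ± 0.09 SE).

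**Figure D2:**
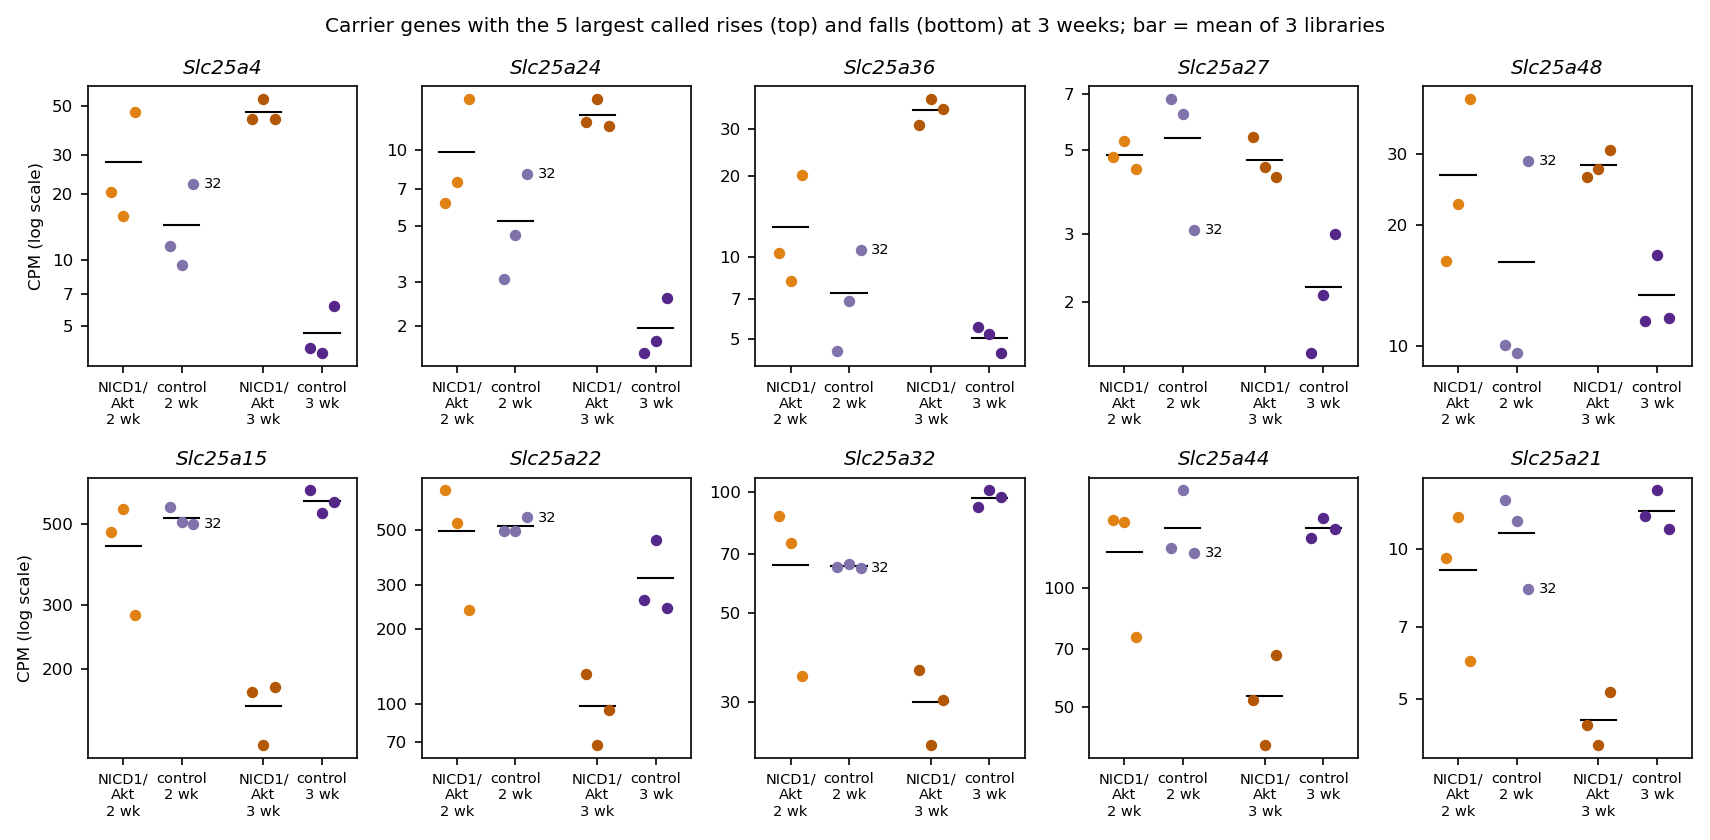
CPM (log axis) of the carriers with the 5 largest called rises (top) and falls (bottom) at 3 weeks, for NICD1/Akt and control livers at 2 and 3 weeks; points are libraries, bars the mean of 3, and 32 marks the control library that goes against its label. At 3 weeks the groups do not overlap for any of the 10 genes, and at 2 weeks they overlap for each.

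The pyrimidine nucleotide carriers, which supply the matrix for mitochondrial DNA and RNA synthesis, also split. Slc25a36 measured 30.9, 38.7 and 35.5 CPM in NICD1/Akt livers of 3 weeks, against 5.52, 5.22 and 4.42 CPM in controls (log2 fold change 2.91 ± 0.14 SE, 7.52-fold, edgeR adjusted p = 9.0e-07). Slc25a33 measured 22.8, 26.3 and 17.6 CPM in NICD1/Akt livers, against 46.2, 30.6 and 43.9 CPM in controls (log2 fold change -0.73 ± 0.19 SE, edgeR adjusted p = 0.0076). The groups did not overlap for either gene, but the Slc25a33 call was lost when controls of both stages were used and with library size alone.

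The carriers of dicarboxylates, citrate and oxoacids were all lower on the TMM scale, 4 of 4, against 33.1% of all genes. Slc25a1, which exports citrate for fatty acid and sterol synthesis, measured 108, 81.3 and 115 CPM in NICD1/Akt livers of 3 weeks, against 253, 258 and 245 CPM in controls (log2 fold change -1.19 ± 0.14 SE, edgeR adjusted p = 0.0001). Slc25a10, the dicarboxylate carrier, measured 71.8, 50.7 and 64.2 CPM, against 138, 148 and 130 CPM in controls (log2 fold change -1.04 ± 0.14 SE). Slc25a21, which carries the oxodicarboxylates of lysine and tryptophan breakdown, measured 4.43, 4.05 and 5.17 CPM, against 11.6, 13.1 and 11 CPM in controls (log2 fold change -1.27 ± 0.16 SE). For these 3 genes the highest NICD1/Akt library stayed below the lowest control. Slc25a11, the oxoglutarate-malate exchanger, fell least, with 51.1, 48.6 and 50.6 CPM in NICD1/Akt livers and 69.3, 70.3 and 72.1 CPM in controls (log2 fold change -0.37 ± 0.08 SE). On library size alone Slc25a11 was called higher (0.33). Of 4 enzyme genes listed around the citrate export route, Acly (log2 fold change -1.22 ± 0.11 SE) and Acaca (-1.58 ± 0.16 SE) were lower. Cs, the citrate synthase of the matrix (-0.11 ± 0.12 SE), and Me1, malic enzyme (0.15 ± 0.12 SE), were not called.

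Among the aspartate and glutamate carriers, the liver form of the aspartate-glutamate exchanger fell and the form of brain and muscle did not. Slc25a13 (citrin), the liver form, measured 105, 62.1 and 92.2 CPM in NICD1/Akt livers of 3 weeks, against 211, 210.5 and 212 CPM in controls (log2 fold change -1.17 ± 0.18 SE, edgeR adjusted p = 0.00045). Slc25a12 (aralar) measured 15.7, 17.1 and 16.6 CPM in NICD1/Akt livers and 15.0, 15.0 and 13.6 CPM in controls (log2 fold change 0.30 ± 0.10 SE, edgeR adjusted p = 0.029). The Slc25a12 call was lost in 8 of the 17 alternatives, among them those leaving out library 2 or 3 of the NICD1/Akt livers, or 10 or 12 of the controls, and its fold change was -0.08 against the 6 controls of both stages. Slc25a22, a glutamate carrier, measured 131, 68.3 and 94.7 CPM in NICD1/Akt livers, against 261, 453 and 243 CPM in controls (log2 fold change -1.58 ± 0.30 SE, edgeR adjusted p = 0.0014). All 4 enzymes of the malate-aspartate shuttle that work with these carriers were lower, against 33.1% of all genes: Got1 (log2 fold change -1.41 ± 0.29 SE), Got2 (-1.39 ± 0.14 SE), Mdh1 (-1.37 ± 0.16 SE) and Mdh2 (-0.58 ± 0.09 SE).

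The ornithine carrier of the urea cycle had the largest fall of the family in the stage's own fit and in 13 of the 17 alternatives, and Slc25a22 had it in the other 4, on leaving out NICD1/Akt library 1 or control library 10 or with controls of both stages (-1.85 with 5 and -2.09 with 6). Slc25a15 measured 173, 124 and 178 CPM in NICD1/Akt livers of 3 weeks, against 617, 536 and 575 CPM in controls (log2 fold change -1.75 ± 0.16 SE, 3.35-fold lower, edgeR adjusted p = 2.7e-05). Slc25a29, a carrier of basic amino acids, stood at 2.46, 2.72 and 3.73 CPM in NICD1/Akt livers and 0.949, 2.87 and 2.08 CPM in controls, which overlap (edgeR adjusted p = 0.11). Both carriers of the other amino acids were lower. Slc25a44, for branched-chain amino acids, measured 51.9, 40.0 and 67.7 CPM, against 133, 149.9 and 141 CPM in controls (log2 fold change -1.29 ± 0.18 SE). Slc25a38, which brings in glycine for heme synthesis, measured 16.1, 12.3 and 17.0 CPM, against 36.1, 28.4 and 29.5 CPM in controls (log2 fold change -0.93 ± 0.15 SE).

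Slc25a20, the carnitine-acylcarnitine exchanger of fatty acid oxidation, measured 51.2, 31.3 and 44.2 CPM in NICD1/Akt livers of 3 weeks, against 97.2, 88.3 and 96.7 CPM in controls (log2 fold change -1.04 ± 0.17 SE, edgeR adjusted p = 0.00062). Among the carnitine shuttle enzymes, Cpt2, of the inner membrane, was lower (log2 fold change -1.61 ± 0.16 SE) and Cpt1a, the liver form of the outer membrane enzyme, was not called (-0.51 ± 0.22 SE). Crat (0.49 ± 0.17 SE) and Cpt1c (4.36 ± 0.53 SE), a form known from brain, were higher.

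Of 6 carriers for cofactors and vitamins described here, 4 were lower and 2 were not called. Slc25a32, for folate and FAD, measured 36.0, 23.4 and 30.2 CPM in NICD1/Akt livers of 3 weeks, against 91.9, 101 and 96.9 CPM in controls (log2 fold change -1.57 ± 0.15 SE, 2.97-fold lower, edgeR adjusted p = 3.6e-05). Slc25a51, the NAD+ carrier, measured 114, 87.8 and 103 CPM, against 221, 297 and 230 CPM in controls (log2 fold change -1.18 ± 0.15 SE). Neither gene's groups overlapped at 3 weeks, and the Slc25a51 call was lost against the 5 controls of both stages without library 32. Slc25a16, linked to coenzyme A, measured 41.6, 30.6 and 39.9 CPM, against 72.8, 83.5 and 73.0 CPM in controls (log2 fold change -0.91 ± 0.13 SE). Slc25a42, the other coenzyme A carrier, stood at 73.5, 26.3 and 67.9 CPM in NICD1/Akt livers and 68.1, 71.8 and 60.6 CPM in controls, so that library 2 alone was low (edgeR adjusted p = 0.71). Slc25a17, of the peroxisomal membrane, had a log2 fold change of -0.43 ± 0.09 SE and was called lower. Slc25a26, for S-adenosylmethionine, overlapped between the groups.

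The iron and glutathione carriers divided by paralog. Slc25a37 (mitoferrin of red cell precursors) measured 28.1, 27.9 and 23.6 CPM in NICD1/Akt livers of 3 weeks, against 61.8, 43.2 and 64.9 CPM in controls (log2 fold change -0.97 ± 0.16 SE, edgeR adjusted p = 0.00065). Slc25a28, the mitoferrin of other tissues, stood at 16.4, 16.3 and 16.8 CPM in NICD1/Akt livers and 20.8, 17.4 and 21.3 CPM in controls and was not called (log2 fold change -0.15 ± 0.11 SE). Beside these, 5 of 5 erythroid markers tested were called lower and the list of 8 summed to 49.5 to 88.6 CPM in NICD1/Akt livers, against 190 to 210 CPM in controls, with Hba-a2 at 0 in both groups, and 5 of 5 Kupffer cell markers, of the macrophages that recycle red cell iron, were lower (94.7 to 114 CPM against 189 to 262 CPM). The part of these cells in the fall of Slc25a37 and of Slc25a38 was not tested. Slc25a39, the main glutathione importer, measured 228, 192 and 234 CPM, against 445, 441 and 415 CPM in controls (log2 fold change -0.87 ± 0.12 SE). Its paralog Slc25a40 stood at 5.08, 4.12 and 4.19 CPM in NICD1/Akt livers and 3.80, 4.79 and 3.42 CPM in controls, which overlap (edgeR adjusted p = 0.24).

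The relatives of the uncoupling proteins did not move together. Slc25a27, known best from brain, measured 5.38, 4.49 and 4.24 CPM in NICD1/Akt livers of 3 weeks, against 1.47, 2.09 and 3.00 CPM in controls (log2 fold change 1.22 ± 0.27 SE, edgeR adjusted p = 0.0035). Controls of 2 weeks, 30 and 31, had 6.79 and 6.20 CPM, above every NICD1/Akt library, while control library 32 had 3.09 CPM, below every NICD1/Akt library. The Slc25a27 call was lost once controls of both stages were used. Slc25a30, known from kidney, was lower at 64.1, 49.8 and 52.1 CPM, against 122, 68.9 and 109 CPM in controls (log2 fold change -0.73 ± 0.20 SE, edgeR adjusted p = 0.011), and that call was lost under the same controls. Slc25a14 overlapped between the groups (edgeR adjusted p = 0.85). Outside the symbol rule, 3 of 5 listed SLC25 genes under other symbols were tested. Of these, 2 were called higher, Ucp2 itself among them (log2 fold change 1.36 ± 0.13 SE), and 1 was called lower (-0.75).

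Slc25a48, which carries choline, measured 26.3, 27.5 and 30.7 CPM in NICD1/Akt livers of 3 weeks, against 11.6, 16.8 and 11.8 CPM in controls (log2 fold change 1.19 ± 0.15 SE, 2.29-fold, edgeR adjusted p = 0.00018). Slc25a47, a carrier found mainly in liver, stood at 304, 157 and 309 CPM in NICD1/Akt livers and 381, 621 and 369 CPM in controls. Its groups did not overlap, but it missed the threshold (log2 fold change -0.71 ± 0.29 SE, edgeR adjusted p = 0.054). It was called lower in 8 of the 17 alternatives, among them DESeq2 and the controls of both stages, and its log2 fold change ran from -1.27 to -0.02 over them. Per kilobase, Slc25a47 was number 2 of the 40 carriers in NICD1/Akt livers and number 3 in controls at 3 weeks. Slc25a46, an outer membrane protein of mitochondrial shape, had a log2 fold change of -0.44 ± 0.09 SE and was called lower. None of Slc25a34, Slc25a35 and Slc25a45, whose substrates are not agreed on, was called. Slc25a35 stood at 1.40, 1.14 and 1.12 CPM in NICD1/Akt livers and 0.863, 0.783 and 0.917 CPM in controls, with no overlap (edgeR adjusted p = 0.078), and 31.3% of its exon bases lie opposite Rangrf.

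**Figure D3:**
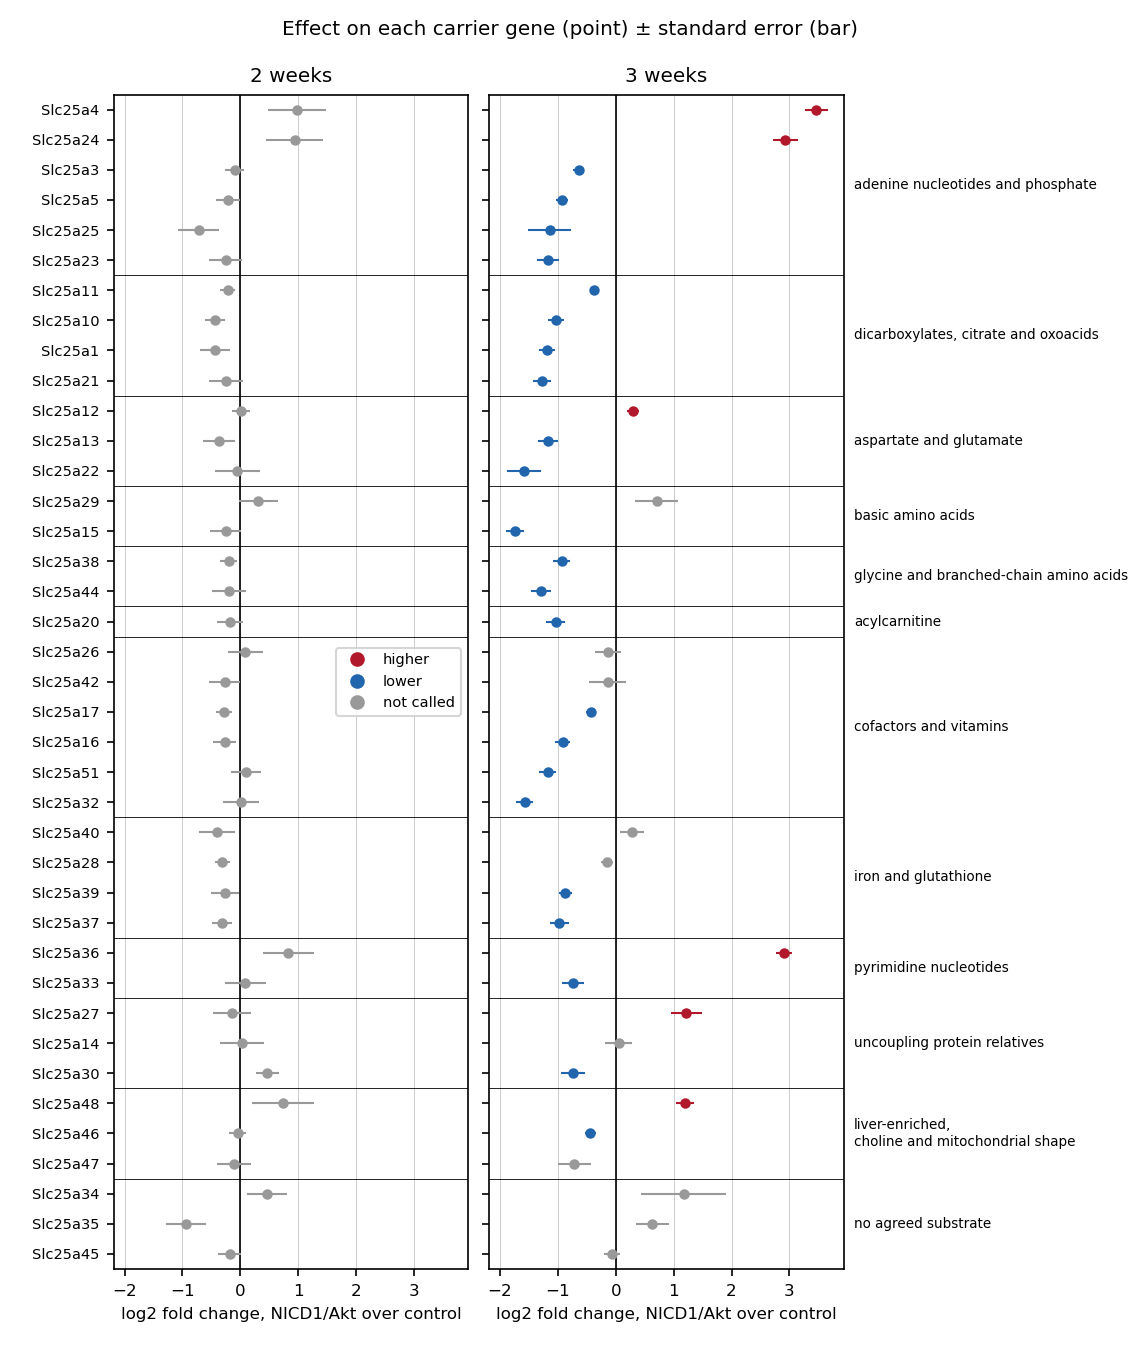
Log2 fold change of NICD1/Akt over control for 39 of the 40 carriers at 2 weeks (left) and 3 weeks (right), with bars of 1 standard error and colours for genes called higher, lower or not called at an adjusted p under 0.05. At 2 weeks no carrier is called, and at 3 weeks 6 are called higher and 23 lower.

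Carriers are made in the cytosol and inserted by the small Tim proteins and the TIM22 complex. Of 12 genes listed for this route 11 were lower at 3 weeks, against 33.1% of all genes, with Timm10 (log2 fold change -1.14 ± 0.13 SE) and Timm29 (-0.90 ± 0.10 SE) among them. The median log2 fold change of the 12 was -0.74. Timm22, the channel itself, was not called (-0.03 ± 0.15 SE). Both subunits of the pyruvate carrier, Mpc1 (-1.06 ± 0.12 SE) and Mpc2 (-1.09 ± 0.12 SE), were lower. Of the sideroflexins, serine and amino acid carriers of another family, Sfxn3 was higher (2.80 ± 0.22 SE), Sfxn2 (-0.53 ± 0.17 SE) and Sfxn5 (-0.96 ± 0.20 SE) were lower, and the other 2 listed were not called. The outer membrane channels Vdac1 (-0.46 ± 0.10 SE) and Vdac3 (-0.31 ± 0.10 SE) were lower and Vdac2 was not called (0.09 ± 0.09 SE). The directions in these lists are relative to the TMM scale. On library size alone fold changes moved up by 0.71 on the log2 scale, more than the falls of Sfxn2, Vdac1 and Vdac3. These lists were chosen with earlier results of these data known.

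The ratio of 2 paralogs within a library needs no scaling between libraries, and 10 pairs that share a substrate were compared. At 3 weeks 9 of the 10 ratios did not overlap between the groups. By the level of single genes, on the scale of the stage's own fit, 30 of the 40 carriers did not overlap, against 76.8% of all genes. Slc25a28 and Slc25a30 overlapped on that scale but not by the CPM printed above. With 3 against 3 libraries the exact two-sided permutation test cannot go below 0.1, and these 9 pairs reached that value (adjusted over the pairs, 0.111). Slc25a4 had 0.256, 0.360 and 0.257 counts per count of Slc25a5 in NICD1/Akt livers, against 0.0119, 0.0110 and 0.0181 in controls, a shift of 21.3-fold. Slc25a24 had 0.0771, 0.319 and 0.161 counts per count of Slc25a25, against 0.00641, 0.00742 and 0.0111 in controls, a shift of 19.2-fold, and 0.0487, 0.0902 and 0.0418 counts per count of Slc25a23, against 0.0025, 0.00288 and 0.00442 in controls, a shift of 17.5-fold. The ratio of the pyrimidine carriers turned over: Slc25a33 had 0.739, 0.679 and 0.497 counts per count of Slc25a36 in NICD1/Akt livers, against 8.38, 5.85 and 9.94 in controls.

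In the other pairs the shift in log2 ratio at 3 weeks was -2.57 for Slc25a15 over Slc25a29, 1.50 for Slc25a12 over Slc25a13, -1.15 for Slc25a39 over Slc25a40, -0.81 for Slc25a37 over Slc25a28 and -0.67 for Slc25a10 over Slc25a11. In each of these 5 the member with the higher CPM in controls lost share to its paralog. Slc25a16 over Slc25a42 overlapped (shift -0.65, exact permutation p = 0.2). At 2 weeks all 10 ratios overlapped, and the exact permutation p-values were 0.2 to 1. Without library 32, 4 of the 10 no longer overlapped, with shifts in log2 ratio of 2.28 for Slc25a24 over Slc25a25 (1.64 with it), 1.67 for Slc25a24 over Slc25a23 (1.21), 1.55 for Slc25a4 over Slc25a5 (1.12) and -0.97 for Slc25a15 over Slc25a29 (-0.67). Leaving it out sets 3 against 2 libraries, where groups part more easily, and no p-value is given for that setting. The share of other gene pairs that part in this way is not known, and the first-named pairs share Slc25a24. The 2-week shift for Slc25a4 over Slc25a5 was 1.12 in log2 ratio, with 0.0628, 0.0515 and 0.215 counts per count in NICD1/Akt livers, against 0.036, 0.0254 and 0.0745 in controls. The highest control there was library 32, and the highest NICD1/Akt value was library 35.

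**Figure D4:**
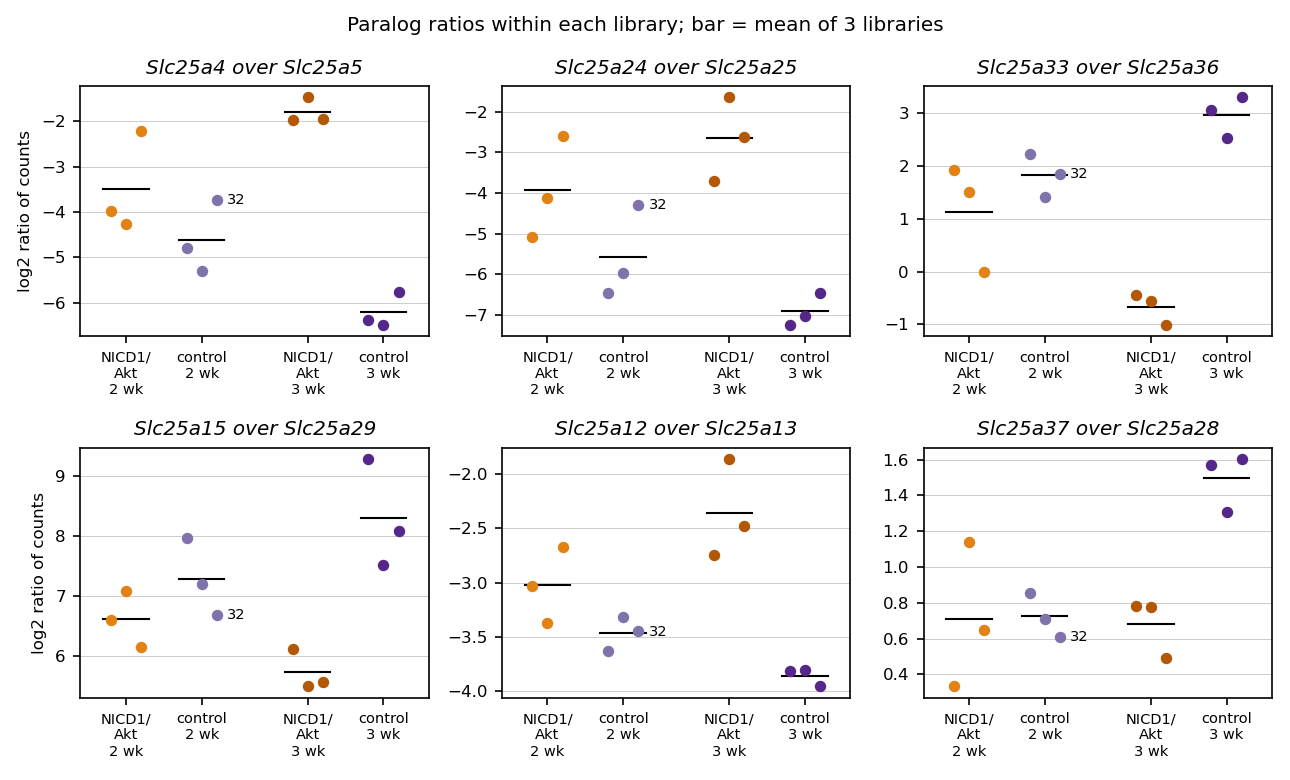
Log2 ratio of the counts of 2 paralogs within each library for 6 of the 10 pairs, in NICD1/Akt and control livers at 2 and 3 weeks; points are libraries, bars the mean of 3, and 32 marks the control library that goes against its label. At 3 weeks the groups are apart in all 6 panels, by 4.41 for Slc25a4 over Slc25a5, and at 2 weeks they overlap.

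At 2 weeks no carrier was called, and neither was any of the 13041 genes tested (0%, edgeR quasi-likelihood test). At an unadjusted p under 0.05, 0 carriers were higher and 2 were lower, against 4.90% and 3.69% of all genes, and the other tools called 27 genes (DESeq2), 12 (edgeR likelihood ratio test) and 0 (limma-voom), none of them carriers. The 2 lower ones were Slc25a10, at 106, 126 and 88.6 CPM in NICD1/Akt livers against 160, 137 and 139 CPM in controls, and Slc25a35, at 1.20, 1.41 and 1.42 CPM against 2.20, 2.02 and 3.55 CPM. The groups did not overlap for 6 carriers (Slc25a1, Slc25a10, Slc25a17, Slc25a28, Slc25a35 and Slc25a38), each lower in NICD1/Akt livers, against 8.53% of all genes. None was higher without overlap, against 7.55% of all genes, and in either direction the 6 of 40 stood beside 16.1% of all genes. The median log2 fold change was -0.19 over the members and 0.01 over all genes. The members' median was -0.03 without NICD1/Akt library 35, -0.27 without control library 32 and -0.0042 on library size alone.

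The carriers with the largest rises at 3 weeks were spread widely at 2 weeks. Slc25a4 measured 20.5, 15.9 and 47.1 CPM in NICD1/Akt livers, against 11.5, 9.45 and 22.2 CPM in controls, where library 32 had 22.2 CPM. Slc25a24 measured 6.18, 7.47 and 16.0 CPM, against 3.06, 4.61 and 8.03 CPM in controls. Slc25a36 measured 10.4, 8.21 and 20.2 CPM, against 4.53, 6.92 and 10.7 CPM in controls. In each, library 35 was the highest NICD1/Akt value and library 32 the highest control, which overlapped libraries 33 and 34. Without library 32 the unadjusted p was under 0.05 for 4 higher carriers, Slc25a4 (log2 fold change 1.44), Slc25a24 (1.39), Slc25a36 (1.20) and Slc25a48 (1.46), and for 2 lower ones, Slc25a25 (-0.95) and Slc25a10 (-0.47), against 12.3% higher and 5.93% lower of all genes, with 0 past the adjusted threshold. Against the 5 controls of both stages without library 32, Slc25a4, Slc25a24 and Slc25a36 passed it (edgeR adjusted p = 0.0408, 0.0408 and 0.0441), 3 of the 40 carriers, against 6.68% of all genes higher in that fit. That fit includes the controls of 3 weeks. In these, Slc25a4 and Slc25a24 were themselves called lower than in controls of 2 weeks (log2 fold change -1.63 and -1.41), so it does not measure a 2-week effect alone.

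Library 35 held the extreme value of 2 weeks for most genes called at 3 weeks, carriers among them. Of the 23 carriers called lower at 3 weeks, 22 had their lowest NICD1/Akt value of 2 weeks in library 35, against 81.2% of all genes called lower, and of the 6 called higher, 4 had their highest there, against 77.5% of all genes called higher. Slc25a15 measured 473, 549 and 281 CPM in libraries 33, 34 and 35, against 554, 505 and 499 CPM in controls. Slc25a22 measured 721, 530 and 237 CPM, against 494, 495 and 561 CPM, and Slc25a32 measured 87.1, 74.6 and 34.9 CPM, against 65.0, 65.9 and 64.7 CPM in controls. The summed hepatocyte markers were also lowest in library 35, at 65186 CPM, against 148632 and 156335 CPM in libraries 33 and 34, and the plasmid gene Akt1 was highest there, at 927 CPM. At 3 weeks, library 2 held the lowest NICD1/Akt value for 21 of the 23 (57.8% of all genes called lower) and the highest for 4 of the 6 (52.8% of all genes called higher), and its summed hepatocyte markers were the lowest of the group, at 27671 CPM.

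Whether the effect differed between 3 and 2 weeks was tested over all 12 libraries, with 4 carriers called higher and 14 lower, against 15.0% and 15.8% of all 13829 genes. The carriers with a larger rise over controls at 3 weeks were Slc25a4 (difference in log2 fold change 2.38 ± 0.60 SE, edgeR adjusted p = 0.017), Slc25a36 (1.96 ± 0.49 SE, 0.017) and Slc25a24 (1.88 ± 0.59 SE, 0.035). Slc25a35 (1.45 ± 0.41 SE) was not called at either stage by itself. The call of this difference was lost in 9 of the 20 alternatives for Slc25a24 and in 5 for Slc25a35. For both genes, leaving out control library 32 was among these. The largest negative differences were in Slc25a32 (-1.70 ± 0.38 SE, edgeR adjusted p = 0.012), Slc25a22 (-1.64 ± 0.54 SE, 0.042) and Slc25a15 (-1.61 ± 0.32 SE, 0.0077). The Slc25a22 call was lost in 13 of the 20 alternatives, also without control library 32. With library size alone the counts were 7 higher and 2 lower, and 92.2% of the calls over all genes were higher instead of 48.8%, and with upper quartile factors they were 5 higher and 6 lower (70.1% of all calls higher). The counts also leaned on single libraries. The lower calls were 4 without NICD1/Akt library 33, 7 without 34, 6 without 2 and 9 without 3, and 9, 8, 6, 8 and 7 without control libraries 31, 32, 10, 11 and 12. The higher calls were 2 on leaving out library 33 or 1 of the NICD1/Akt livers, or 10 or 11 of the controls. Slc25a4, Slc25a36, Slc25a15 and Slc25a32 kept their call in every alternative tried.

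The controls of the stages also differed. Between controls at 3 and 2 weeks, 4 carriers were called higher and 8 lower, against 17.4% and 20.4% of all genes. Slc25a30 had 122, 68.9 and 109 CPM in controls at 3 weeks, against 38.9, 28.6 and 28.0 CPM at 2 weeks (log2 fold change 1.65 ± 0.23 SE, edgeR adjusted p = 0.0004). Slc25a34 had 0.518, 2.18 and 0.667 CPM at 3 weeks, against 12.1, 11.1 and 8.73 CPM at 2 weeks (-3.25 ± 0.68 SE, 0.0041). Slc25a4 (-1.63 ± 0.45 SE) and Slc25a24 (-1.41 ± 0.44 SE) were lower too. Within NICD1/Akt livers the same genes differed by 0.76 ± 0.40 SE and 0.47 ± 0.39 SE and were not called, so the larger part of their difference between stages lay in the controls, which include library 32. The higher count was 2 without control library 10. Stage and Ddx3y level cannot be told apart in this comparison except through library 32, which goes against its label. For Slc25a30 and Slc25a34, library 32 (28.0 and 8.73 CPM) lay on the side of the other controls of 2 weeks. Slc25a27, also called lower in controls of 3 weeks (-1.29 ± 0.33 SE), went the other way. There library 32 had 3.09 CPM, nearer the controls of 3 weeks (1.47, 2.09 and 3.00 CPM) than libraries 30 and 31 (6.79 and 6.20 CPM). The part of stage and of Ddx3y level in these differences was not tested.

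Within NICD1/Akt livers, 1 carrier was higher and 20 were lower at 3 than at 2 weeks, against 11.1% and 17.4% of all genes. It was Slc25a36 (log2 fold change 1.42 ± 0.34 SE, edgeR adjusted p = 0.012). The largest falls were Slc25a34 (-2.65 ± 0.61 SE, 3.79, 0.589 and 2.61 CPM at 3 weeks against 13.4, 22 and 8.66 CPM at 2 weeks), which fell in controls as well, and Slc25a22 (-2.34 ± 0.40 SE). The lower count was 12 without NICD1/Akt library 33 or 2 and 13 without 34, and the higher count was 0 without 33 and 3 without 35.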

How the data were processed

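RNA-seq of mouse liver was used, with 12 libraries in 4 groups of 3. The values deposited by the authors are unnormalised read counts for each gene, 1 table per stage. The libraries were made with a stranded poly(A) kit. The submitters' processing notes name STAR 2.7, Subread 2.0.6 and GRCm39, whereas the paper's methods name another counter and an mm10 reference, and this was not settled here. Whether counting used strand is not given in the sources used here. Symbols and exon lengths came from GENCODE M21, which matched 21573 of 21807 IDs. The tables hold no row without a gene.

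Groups followed the genotype labels. Each stage was fitted alone with edgeR 4.0.16 in R 4.3.3 (TMM factors, filterByExpr defaults, quasi-likelihood F-test, no covariates), with Benjamini-Hochberg adjustment over all genes tested and a threshold of 0.05. The difference between stages and the comparisons between stages used all 12 libraries. Standard errors are the size of the log2 fold change divided by the square root of F. Alternatives were DESeq2 1.42.0, limma-voom (limma 3.58.1), the likelihood ratio test, other scalings and filters, controls of both stages (6, or 5 without library 32) and each library left out. Paralog ratios used counts plus 0.5 (alternatives 0 and 5) and an exact permutation test. Scripts were tested on simulated data. Depth was 13136892 to 19594839 counts per library, which limits precision for members near 1 CPM.

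Members, role lists, markers and pairs were chosen with earlier results of these data known. Library values are given for the called members with the largest rises and falls at 3 weeks (up to 8 each) and the 5 largest differences between stages, and for both genes of each pair, and for other members where a sentence needed them, chosen after their values were seen. Promoter windows came from RefSeq (GRCm38.p6), and exon overlaps from GENCODE M21. Of the 40 members, 1 is not reported here by name, though it stays in the fits and in counts over the family.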

Additional observations from a re-analysis of the deposited data

Results flagged for a closer look

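The effect of NICD1/Akt differed between 3 and 2 weeks for 18 carriers in the test of the difference itself (edgeR quasi-likelihood test over 12 libraries, adjusted p under 0.05), where 30.8% of all genes passed. Values are the log2 effect at 3 weeks minus that at 2 weeks. It was higher for Slc25a4 (2.3848), Slc25a36 (1.9641), Slc25a24 (1.8807) and Slc25a35 (1.4539). It was lower for Slc25a32 (-1.6958), Slc25a22 (-1.6436), Slc25a15 (-1.6059), Slc25a51 (-1.3843), Slc25a30 (-1.3144), Slc25a44 (-1.2061) and Slc25a21 (-1.1344). Smaller negative differences were found for Slc25a20 (-0.9706), Slc25a38 (-0.8400), Slc25a5 (-0.8287), Slc25a37 (-0.7662), Slc25a16 (-0.7603), Slc25a10 (-0.7116) and Slc25a3 (-0.6512). In Slc25a30, Slc25a51, Slc25a37 and Slc25a38 the controls were also called higher at 3 than at 2 weeks, and in Slc25a4, Slc25a24 and Slc25a35 they were called lower. Of the calls of this difference, 2 of the 4 higher and 2 of the 14 lower were kept in all 20 alternatives. Slc25a37 lost its call in 15, Slc25a16 in 14, Slc25a22 in 13, and Slc25a10, Slc25a20, Slc25a21 and Slc25a44 in 11 each.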

How the results depend on the processing

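Without TMM factors, on library size alone, 18 carriers were higher and 10 lower at 3 weeks, and 7 higher and 2 lower for the difference between stages, where upper quartile factors gave 6 lower. With library size alone the log2 fold change at 3 weeks was above 0 for Slc25a3 (0.067), Slc25a11 (0.33), Slc25a17 (0.27), Slc25a26 (0.57), Slc25a28 (0.55), Slc25a42 (0.54), Slc25a45 (0.65) and Slc25a46 (0.27), because the scaling raises all fold changes by the same amount. Against 6 controls Slc25a12 was at -0.082, and against 5 controls without library 32 the higher carriers at 2 weeks were 3, against 6.68% of all genes; the cause was not tested. With 1 library left out, the counts ran from 5 to 7 higher and 22 to 23 lower at 3 weeks, 0 and 0 at 2 weeks, 2 to 5 higher and 4 to 21 lower for the difference between stages, 2 to 4 higher and 6 to 8 lower between controls, and 0 to 3 higher and 12 to 24 lower between NICD1/Akt stages. Where this leaves 2 libraries in a group, the spread is pooled over groups. At 3 weeks the shifts of the 10 paralog ratios kept their direction under the other pseudocounts and with each library left out, and at 2 weeks those of Slc25a37 over Slc25a28, Slc25a39 over Slc25a40 and Slc25a16 over Slc25a42, which were near 0, changed sign in some of these. No paired analysis was possible because the library numbers are not shared between groups. Members near 1 CPM, such as Slc25a35, are limited by depth.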
